A study of Mus musculus with 2 samples.

Results

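The Hoxc cluster of the mouse carries 9 Hox genes on chromosome 15, and 4 binding sites of the zinc finger protein CTCF were found in it in newborn hindbrain. The sites are the peaks of the authors' optimal set whose summit lies on chromosome 15 of mm10 between about 50 kb before Hoxc13 and about 50 kb past Hoxc4. They are 4 of 62686 optimal peaks. The rule for the window uses positions and no peak's signal, though it was written with earlier results of these data known. The data come from 1 group of 2 ChIP-seq libraries, made with an antibody against CTCF from wild-type hindbrain tissue (strain B6NCrl, postnatal day 0, sex not collected). No genotype, treatment or control group stands beside it. Both libraries, numbered as biological replicates 1 and 2, name the same sample of pulverised tissue pooled over several dissections. The spread between them may thus be technical, and a site bound in few cells cannot be told apart from one bound weakly in many. Peak lists hold no expression values, so the tissue label was not checked against marker genes, and the read depth is unknown here.

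Hox genes encode homeodomain transcription factors that give cells their position along the body axis. In each of the mammalian clusters the genes are read in the same direction, and their order on the chromosome follows the order of their domains in the body. In the Hoxc cluster, Hoxc4 and Hoxc5 act furthest forward, Hoxc6, Hoxc8 and Hoxc9 at brachial and thoracic levels, where they specify motor neurons of the spinal cord, Hoxc10 and Hoxc11 at lumbar levels, and Hoxc12 and Hoxc13 at the tail end, with Hoxc13 also known for its role in hair. CTCF holds the feet of chromatin loops, and in Hox clusters its sites are known as places where active chromatin meets chromatin silenced by Polycomb proteins. The strand of its recognition sequence sets the direction in which it sits on DNA.

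The sequences below, of 3 of the sites, are centred on the summit and come from the GRCm38 reference, in RefSeq's copy. They are written on the strand of the best match to the 14 bp CTCF core consensus, with that match in capitals, because the match and its strand are what the sites are compared by.
Hoxc10 exon site, chr15:102970863-102970983, minus strand: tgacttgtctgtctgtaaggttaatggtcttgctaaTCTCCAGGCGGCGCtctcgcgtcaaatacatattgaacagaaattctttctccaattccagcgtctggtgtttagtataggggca
Hoxc8-Hoxc9 site, chr15:102987538-102987658, plus strand: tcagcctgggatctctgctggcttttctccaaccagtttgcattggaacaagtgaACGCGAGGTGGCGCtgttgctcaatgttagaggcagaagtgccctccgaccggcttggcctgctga
Hoxc5 upstream site, chr15:103013642-103013762, plus strand: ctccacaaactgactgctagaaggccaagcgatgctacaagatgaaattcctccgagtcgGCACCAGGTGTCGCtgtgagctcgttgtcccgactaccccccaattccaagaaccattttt

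All 4 sites lay within 47.1 kb, in the middle of the cluster. Signal values are the authors' own, on a caller's scale with no stated unit, and serve here to rank peaks within a list. The strongest was the Hoxc8-Hoxc9 site (chr15:102987475-102987715), in the 6.64 kb gap between the coding sequences of these 2 genes, 3009 bp before the nearest start of Hoxc8. Its signal was 349.8, rank 4589 of the optimal set, so that 7.32% of optimal peaks were stronger. The Hoxc5 upstream site (chr15:103013605-103013799) came next with a signal of 247.9 and rank 11160. It lay 113 bp before the start of Hoxc5, in the gap of 3.04 kb that separates the coding sequences of Hoxc6 and Hoxc5.

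The remaining pair of sites belonged to Hoxc10. The upstream site lay 219 bp before the start of the gene, with a signal of 164.8 and rank 18079. The exon site (chr15:102970763-102971082) had its summit inside the last coding exon of Hoxc10, which encodes the homeodomain, with a signal of 63.4 and rank 34247. It was the weakest of the sites, and the median over the optimal peaks on the assembled chromosomes was 73.9. The other 3 sites were above that median. A long transcript of Hoxc5, annotated without a coding sequence, starts inside Hoxc10 at 102967443 and runs to the body of Hoxc5, so the exon site, the Hoxc8-Hoxc9 site and the Hoxc5 upstream site also lie in its intron. By the annotated features the Hoxc10 upstream site is intergenic.

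**Figure D1:**
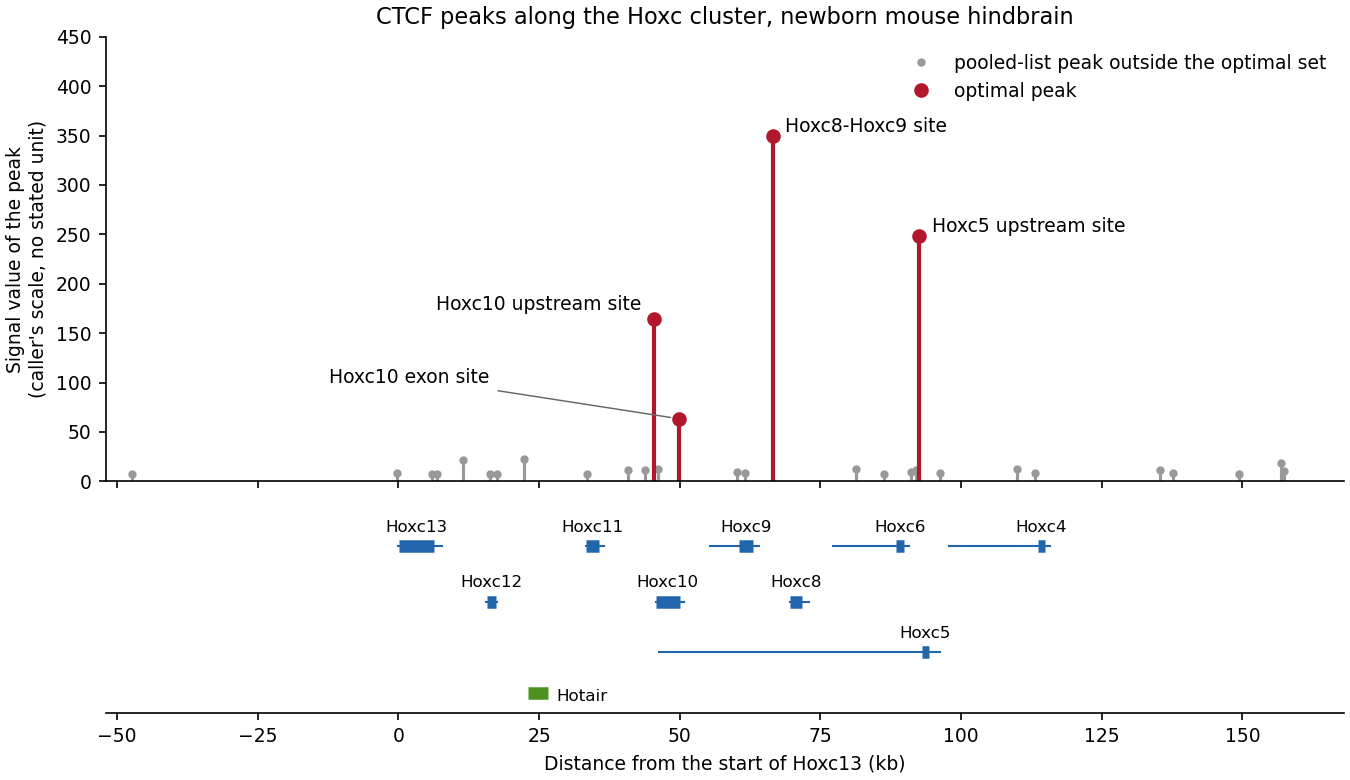
Signal value of each peak (vertical axis, caller's scale) by its distance in kb from the start of Hoxc13. Red marks the 4 optimal peaks, with signals from 63.4 to 349.8, and grey the 26 peaks of the pooled list outside the optimal set, all at or under 22.3. Below, thin lines are gene records and thick blue bars coding spans, all transcribed to the right, and green is Hotair.

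Both libraries listed all 4 sites. This does not set them apart, since 62362 of 62677 optimal peaks on the assembled chromosomes were in both lists. The order of strength among the 4 was the same in each. Each library has its own list of 300000 peaks, with its own signal scale. The Hoxc8-Hoxc9 site had a signal of 200.6 in replicate 1 and 151.95 in replicate 2, at ranks 4546 and 4471. The Hoxc5 upstream site had signals of 132.6 and 115.3, at ranks 12657 and 9391. For the Hoxc10 upstream site the signals were 104.4 and 61.7 and the ranks 16870 and 19546. The exon site followed with signals of 33.4 and 27.6, at ranks 37097 and 32797. The ranks of the sites thus did not cross between the libraries.

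The spread of these ranks was set beside that of these 62362 peaks. There the absolute log2 ratio of the ranks had a median of 0.21, with quartiles of 0.10 and 0.39. The Hoxc8-Hoxc9 site had 0.02, the exon site 0.18 and the Hoxc10 upstream site 0.21. The Hoxc5 upstream site had 0.43, which 21.8% of these peaks reached. The summits of the 2 libraries lay 4 bp apart at the Hoxc8-Hoxc9 site, 4 bp at the Hoxc5 upstream site, 9 bp at the Hoxc10 upstream site and 3 bp at the exon site, against a median of 10 bp. The conservative set, the stricter of the authors' selections, held the 4 sites at the same summits.

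**Figure D2:**
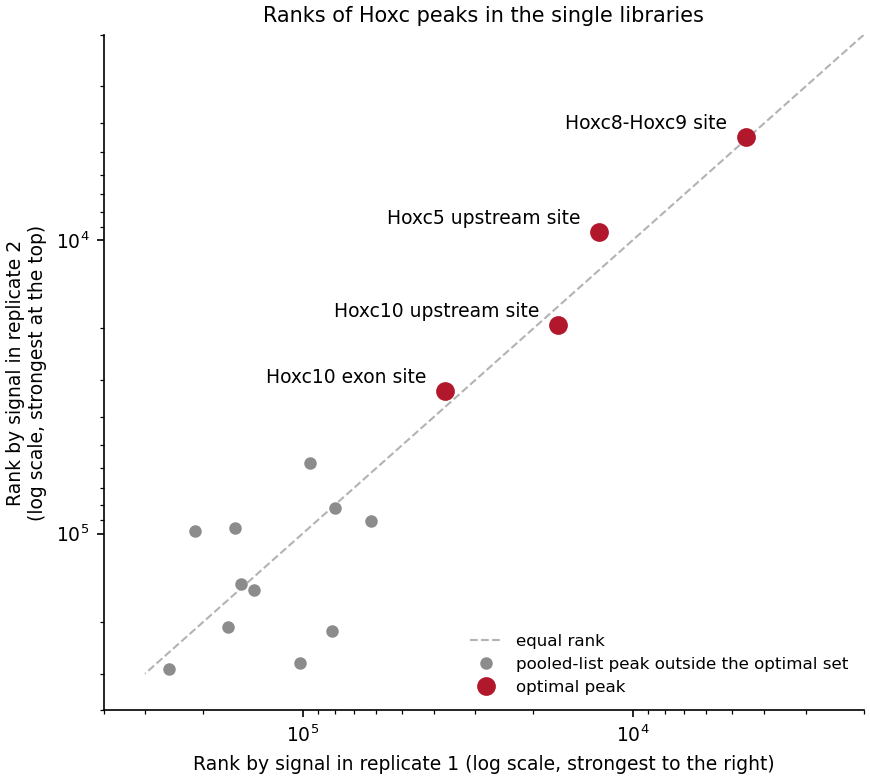
Rank by signal in replicate 1 (horizontal axis) and replicate 2 (vertical axis), both on log scales with strong peaks to the upper right. The 4 optimal peaks (red) keep their order in both libraries, from ranks 4546 and 4471 to ranks 37097 and 32797, and the 11 other pooled peaks found in both lists (grey) lie at weaker ranks.

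Among the genes, 2 of 9 had a summit within 1 kb of an annotated transcript start. By the same rule 39.8% of 21938 protein-coding genes were called. The 2 genes were Hoxc10 and Hoxc5. The Hoxc10 upstream site counts for both, because it also lies within 1 kb of the start of the long Hoxc5 transcript. The count was 2 with limits of 500 bp and of 2500 bp too, where 32.3% and 49.2% of coding genes were called. Of the 30 Hox genes outside the Hoxc cluster, 6 had a summit within 1 kb of a start. They were Hoxa5, Hoxa7, Hoxa9, Hoxa10, Hoxb5 and Hoxd10, which include all the other genes of paralogues 5 and 10. The difference between the cluster and other genes was not tested, since neighbouring genes share sites.

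The other 7 genes had no such site. Hoxc8 was nearest, at 3009 bp, followed by Hoxc6 (4129 bp from the Hoxc5 upstream site), Hoxc4 (5232 bp, for the start of its longer transcript) and Hoxc9 (5516 bp, from the exon site). The genes at the tail end of the cluster lay furthest from any site. The nearest one for Hoxc11, Hoxc12 and Hoxc13 was the Hoxc10 upstream site, at 12150, 29820 and 45474 bp. No optimal summit thus lay in or between the coding sequences of Hoxc13, Hoxc12 and Hoxc11, or between those of Hoxc5 and Hoxc4. Of the 8 gaps between neighbouring coding sequences, 3 held a site. The longest gaps, from Hoxc5 to Hoxc4 (19.3 kb) and from Hoxc8 to Hoxc6 (16.8 kb), were empty. Hotair, a long noncoding RNA read from the other strand between Hoxc12 and Hoxc11, started 18847 bp from the nearest site. The microRNA genes Mir615 and Mir196a-2 lay 1208 and 2427 bp from one.

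Weaker peaks of the pooled list marked some of the empty stretches. The window held 30 pooled peaks, of which 26 were outside the optimal set, with signals from 7.19 to 22.3 and a median of 8.91. The weakest optimal site was 2.85 times stronger than the strongest of them. Of the 26, 11 overlapped a peak in both single-library lists and 15 in 1 of them. The strongest (chr15:102943304-102943623, signal 22.3) lay in the gap between Hoxc12 and Hoxc11, just past the 3′ end of Hotair, at rank 61930 in replicate 1 and 90557 in replicate 2. The next (chr15:102932462-102932781, signal 21.1) lay between Hoxc13 and Hoxc12, at ranks 95000 and 57423. The third (chr15:103077725-103078044, signal 18.2) lay beyond Hoxc4, at ranks 79643 and 82017. The first of these stood within the 62686 strongest peaks of replicate 1 only, and the next within those of replicate 2 only.

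At the gene starts themselves the pooled list held faint peaks, which were picked out after their values were seen. There were 6 such peaks within 1 kb of a Hoxc start. One lay 185 bp from the start of Hoxc13 (signal 8.60), 1 lay 569 bp from that of Hoxc12 (7.65) and 1 lay 177 bp from that of Hoxc11 (7.62). Hoxc4 had one 86 bp from the start of its shorter transcript (8.51). These 4 overlapped a peak in replicate 1 and none in replicate 2. The other 2 were stronger and overlapped a peak in both libraries, 1 of them 198 bp from the start of the long Hoxc5 transcript, inside Hoxc10 (12.3), and 1 of them before the start of the short one (10.99).

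No Hoxc site held a complete CTCF core. Near the summit (50 bp to either side), 2 of 4 sites had a match with no more than 2 mismatches, against 65.4% of optimal peaks. In windows 1 kb to the left and right of the optimal summits the share was 2.85% and 2.98%. None of the 4 had fewer than 2 mismatches, while 26.0% of optimal peaks had 1 mismatch and 8.70% had 0. The Hoxc10 upstream site had 2 mismatches to the consensus, and so had the Hoxc5 upstream site, at positions 1 and 11 counted from the 5′ end of the core. The Hoxc8-Hoxc9 site, the strongest, had 3 mismatches, at positions 1, 3 and 5. Among the 4588 optimal peaks at least as strong, 8.15% had more than 2. The exon site had 3 mismatches too, at positions 1, 3 and 9. A match with at most 3 is less telling, since 17.3% and 17.2% of the flanking windows hold one, against 86.3% of the summits.

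The matches lay close to the summits, with their centres 1.5 bp away at the Hoxc10 upstream and Hoxc8-Hoxc9 sites and 6.5 bp at the Hoxc5 upstream site, against a median of 6.5 bp. At the exon site the distance was 17.5 bp.

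The 3 sites outside the exon pointed the same way. Both matches with at most 2 mismatches were on the plus strand, on which all Hoxc genes are read, and so was the best match of the Hoxc8-Hoxc9 site with 3. The best match of the exon site was on the minus strand. Within 100 bp of its summit a plus-strand match with as many mismatches also occurred, so its direction is not settled by the sequence. The nearest optimal peak on the Hoxc13 side (102807548, signal 256.1) had its match on the minus strand, and the nearest on the Hoxc4 side (103092685, signal 63.7) on the plus strand.

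All 4 sites held more CpG dinucleotides than the median peak. Counted to 50 bp on either side of the summit, there were 8 CpGs at the Hoxc10 upstream site, 6 at the Hoxc5 upstream site and 5 at each of the others. The median over the optimal peaks was 1, and 14.9% had 5 or more. The GC content ranged more widely. It was 66.3% at the Hoxc10 upstream site, 55.4% at the Hoxc5 upstream site, 53.5% at the Hoxc8-Hoxc9 site and 44.6% at the exon site, against a median of 52.5%. None of the 4 summits lay in sequence that the reference masks as repeats or low complexity, as 18.4% of optimal summits did.

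The exon site was compared with the homeobox exons of the other Hox genes, a comparison chosen after its position was seen. Of 39 last coding exons of Hox genes, 2 held an optimal summit, and they belonged to the paralogues Hoxc10 and Hoxd10. In the pooled list 4 of the 39 held a summit, with Hoxb8 (signal 11.4) and Hoxb3 (16.8 at the strongest) added. The share among the last coding exons of all genes is not given here, so the count is a description only. The Hoxd10 peak on chromosome 2 had a signal of 49.6 and rank 39564, close to those of the Hoxc10 exon. Both exons are 275 bases long, and the summits lay 125 bases into the Hoxc10 exon and 128 bases into that of Hoxd10. Replicate 1 placed them at 125 in each, and replicate 2 at 122 and 146. In the third paralogue, Hoxa10, no peak of the 4 lists examined (optimal, pooled and both libraries) had its summit in the exon. These exons are alike in sequence, so the aligned stretches are shown for comparison with that of Hoxc10 above, with the bases aligned to its match in capitals.
Hoxd10 exon, chr2:74694156-74694276, minus strand: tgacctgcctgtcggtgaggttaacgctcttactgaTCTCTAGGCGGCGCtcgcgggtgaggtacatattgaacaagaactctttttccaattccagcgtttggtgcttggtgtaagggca
Hoxa10 exon, chr6:52232598-52232718, plus strand: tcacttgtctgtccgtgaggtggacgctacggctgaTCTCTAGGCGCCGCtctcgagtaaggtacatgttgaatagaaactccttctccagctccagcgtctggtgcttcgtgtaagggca
Over the exon, Hoxc10 was identical to Hoxd10 at 218 of 275 bases (79.3%) and to Hoxa10 at 207 of 272 (76.1%). The longest run without a difference was 16 bases with Hoxd10 and 17 with Hoxa10. In the 14 capital bases, Hoxd10 was identical at 13 and had 3 mismatches to the core consensus, as many as Hoxc10. Hoxa10 was identical at 12 and had 4. Whether this difference bears on the lack of a peak there was not tested. Among all optimal peaks, 2284 (3.64%) had their summit in a coding exon, with a median signal of 56.5.

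The other clusters were set beside the Hoxc cluster gap by gap. Gaps were bounded by coding sequence, and gaps between the same paralogue numbers were read together. The gap before paralogue 5 held a site in Hoxa (signal 143.0), Hoxb (302.8) and Hoxc (247.9), and in Hoxd, which has no genes 5 to 7, the gap from Hoxd8 to Hoxd4 held one (320.2). The gap after paralogue 9 held a site in all 4 clusters, at 452.9 between Hoxa9 and Hoxa7, 272.8 between Hoxb9 and Hoxb8, 349.8 between Hoxc9 and Hoxc8 and 320.3 between Hoxd9 and Hoxd8. The gap between paralogues 11 and 10 was occupied in Hoxa (187.5), Hoxc (164.8) and Hoxd (149.5 for the stronger peak, 47.6 for the other). Hoxb has no genes 10 and 11. Each of the 3 gaps that held a site in Hoxc was occupied in the other clusters that have its genes. Gaps with a site were common in those clusters in any case, 7 of 10 in Hoxa, 7 of 9 in Hoxb and 4 of 8 in Hoxd. Nothing particular to these gaps thus follows from the match of gaps alone. The peaks within 1 kb of the starts of Hoxa5 (143.0), Hoxb5 (302.8), Hoxa10 (187.5) and Hoxd10 (47.6) are among those given above. Hoxa9 was called too (26.3), while Hoxc9 was not. This overlap in called paralogues was noticed after the values were seen and was not tested.

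The reverse did not hold. Between the same pair of paralogues, a site was present elsewhere and absent from Hoxc in 3 gaps. These were the gaps between paralogues 13 and 12 (272.9 in Hoxd), 10 and 9 (26.3 in Hoxa) and 5 and 4 (158.6 in Hoxa and 251.4 in Hoxb). Where a cluster lacks a paralogue the gaps cannot be matched one to one, and there too sites occurred opposite empty Hoxc gaps. One of these lay between Hoxa13 and Hoxa11 (267.9). Others lay between Hoxa7 and Hoxa6 (205.2), Hoxb8 and Hoxb7 (39.6) and Hoxb7 and Hoxb6 (240.7 for the stronger). These lie opposite the gap from Hoxc8 to Hoxc6. The gap from Hoxd8 to Hoxd4 (320.2) also spans the empty gaps from Hoxc8 to Hoxc6 and from Hoxc5 to Hoxc4. Several sites lay between Hoxb13 and Hoxb9, with signals from 36.0 to 276.1, and they count in the Hoxb densities below. That gap spans the empty gaps from Hoxc13 to Hoxc11 and from Hoxc10 to Hoxc9, and the occupied one from Hoxc11 to Hoxc10. From the first to the last coding base of the cluster, Hoxc had 4 sites in 114.8 kb, or 3.48 per 100 kb (exact Poisson 95% interval 0.949 to 8.92). Hoxa had 6.73 (2.71 to 13.9), Hoxb 6.95 (3.59 to 12.1) and Hoxd 6.24 (2.29 to 13.6). With the 50 kb margins the counts were 4 in Hoxc, 9 in Hoxa, 17 in Hoxb and 8 in Hoxd. Per 100 kb this was 1.85 (0.505 to 4.74) in Hoxc, 4.38 (2.00 to 8.32) in Hoxa, 6.21 (3.62 to 9.94) in Hoxb and 4.06 (1.75 to 8.01) in Hoxd. The density of Hoxc was the lowest of the 4 over both spans. The intervals treat sites as independent counts, which neighbouring sites of a cluster are not, and do not measure the spread between the libraries. They cover counting error only, and the difference between clusters was not tested. The median signal was nearly the same in the 4 windows, at 206.3, 205.2, 196.5 and 206.3 in that order.

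**Figure D3:**
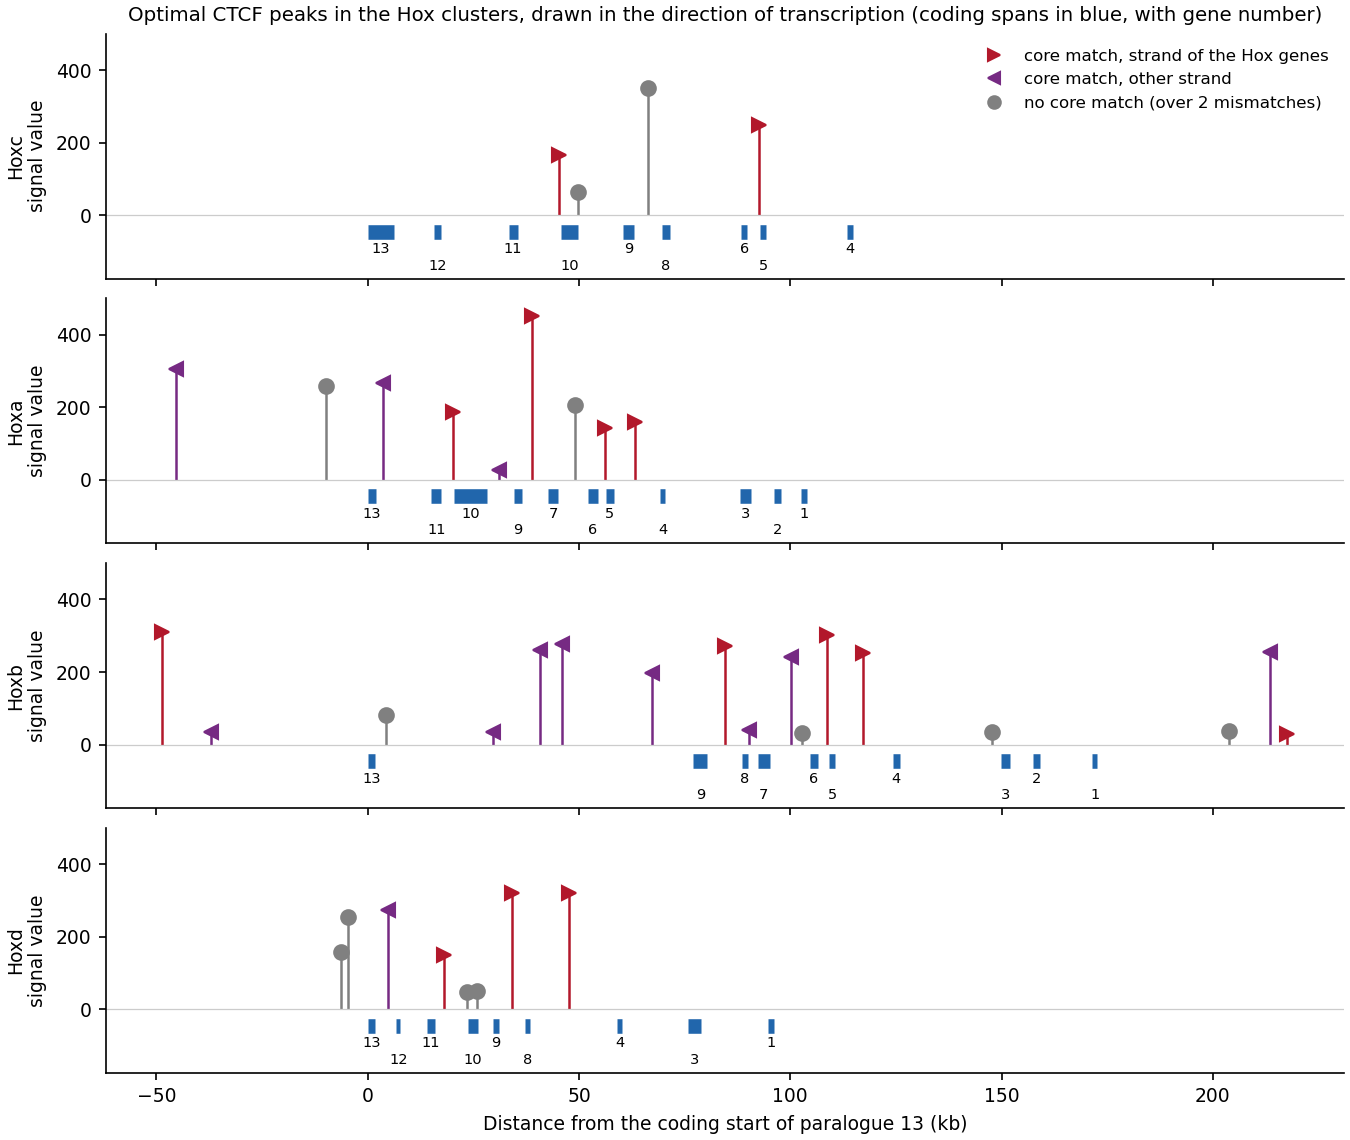
Optimal CTCF peaks in the windows of the 4 Hox clusters, with signal value (vertical axis, caller's scale) by distance in kb from the coding start of paralogue 13, drawn so that transcription runs to the right. Triangles give the strand of the core match relative to the genes and grey circles mark peaks without one. Between their coding ends the clusters hold 4 (Hoxc), 7 (Hoxa), 12 (Hoxb) and 6 (Hoxd) sites.

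By orientation, 2 of 2 core matches between the coding ends of Hoxc lay on the strand of the genes. The numbers were 4 of 6 in Hoxa, 3 of 9 in Hoxb and 3 of 4 in Hoxd. The cores of the Hoxc10 upstream and Hoxc5 upstream sites were compared with those of the other clusters. Among the matches with at most 2 mismatches, no core of Hoxa, Hoxb or Hoxd was identical to that of the Hoxc10 upstream or Hoxc5 upstream site at more than 11 of 14 bases. The Hoxc5 upstream site matched that of the gap between Hoxb6 and Hoxb5 at 9 bases and that between Hoxa6 and Hoxa5 at 10. The Hoxc8-Hoxc9 site and the exon site were left out here, as their best matches had 3 mismatches. Yet the best match of the Hoxc8-Hoxc9 site had the same bases as the core between Hoxa13 and Hoxa11 except at position 3. How alike the cores of unrelated optimal peaks are was not measured. Whether the Hoxc cores are unlike those of the other clusters is thus not shown.

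The Hoxc sites stood alone in a long stretch with few peaks. From the Hoxc10 upstream site, the next optimal peak on the Hoxc13 side was 159.0 kb away, and 4.53% of the 62657 distances between neighbouring optimal peaks were at least as long. On the Hoxc4 side the next peak was 79.0 kb from the Hoxc5 upstream site, a distance reached by 11.5%. The median distance was 14.7 kb. Hoxc11, Hoxc12 and Hoxc13 lie inside the longer stretch and Hoxc4 inside the shorter. Beyond these stretches peaks were frequent. The 500 kb before the window held 37, or 7.4 per 100 kb, and the 500 kb after it 45, or 9 per 100 kb. The window itself had 1.85 and the genome without assembly gaps 2.37. Without the margins, between the coding ends of the cluster, the density was 3.48, above that of the genome. The median signal of these neighbours was 132.0 before the window and 146.5 after it.

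**Figure D4:**
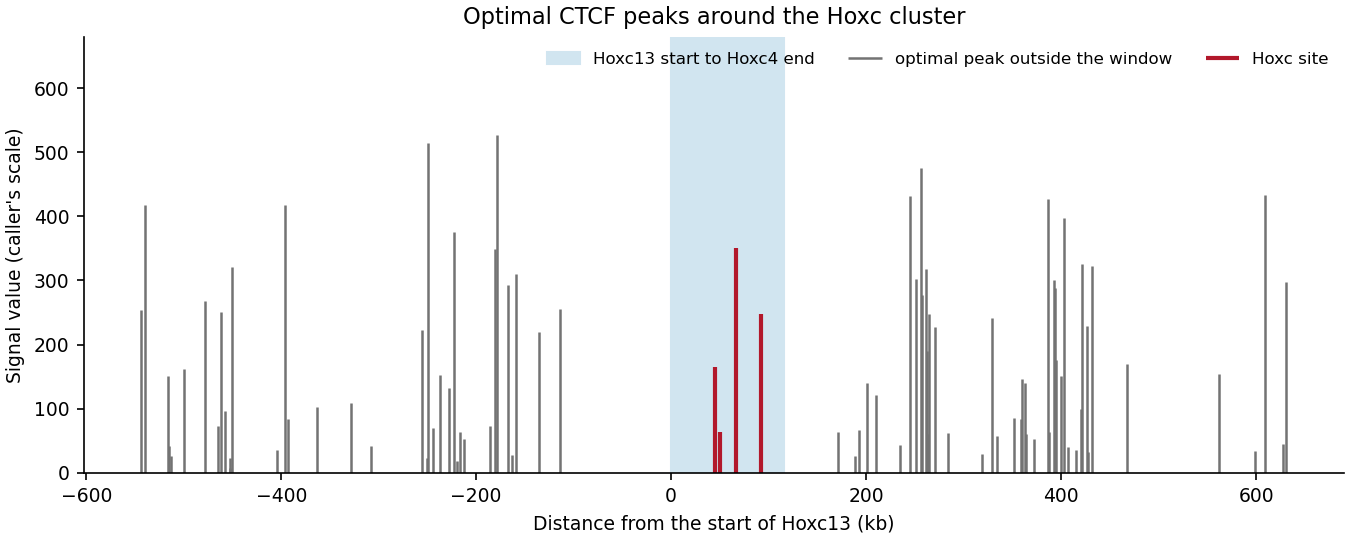
Signal value of optimal CTCF peaks (vertical axis, caller's scale) by distance in kb from the start of Hoxc13, over the window and 500 kb on each side. The 4 Hoxc sites (red) stand inside the cluster (shaded), with empty stretches of 159.0 kb before and 79.0 kb after them, and 37 and 45 peaks in the surroundings.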

How the data were processed

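CTCF ChIP-seq peaks of 2 libraries of newborn mouse hindbrain were read from the authors' deposited narrowPeak lists on mm10, with 300000 peaks for each library, 251251 for the pooled alignments, and 59979 and 62686 in the conservative and optimal sets selected by the irreproducible discovery rate (IDR). The sources used here name neither the caller nor the IDR threshold. The deposited signal value has no stated unit and ranks peaks within a list. The deposited −log10 q value and the deposited IDR score were not used. Depth is unknown, as no list holds read counts.

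Genes came from GENCODE vM21 and bases from GRCm38.p6, the same coordinates as mm10. A gene was called with a summit within 1 kb of any transcript start. The 14 bp CTCF core consensus was sought on either strand, to 50 bp from a summit, with at most 2 mismatches. The search was tested on simulated sequences with cores planted among A and T bases only. That test covers recovery of a core and not chance matches in GC-rich sequence. Counts are descriptions without a test, because there is 1 group. All 9 genes and every optimal peak are named, and of the other peaks the 3 strongest. Faint peaks near starts and noncoding genes were named after their values were seen. A list of cofactor genes and 1 site's sequence are not reported here. The window, genes and lists were chosen with earlier results of these data known. Python 3.11.15 with pandas 2.3.3, NumPy 2.4.6 and matplotlib 3.10.9 was used.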

Additional observations from a re-analysis of the deposited data

How the results depend on the processing

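The number of optimal peaks in the window, 4, moved by less than 1.5 times under each of the 7 alternatives tried (the conservative set, the stronger 31343 optimal peaks, merging of summits under 150 bp apart, the 62686 strongest pooled peaks, the window without margins, and each library alone), which gave 3 to 5. Without replicate 1 and without replicate 2 it was 5 and 5, and the genes with a site near a start remained 2 in number under all 9 alternatives run for them. The number of sites with a core match was 2, and 2 to 3 when 1 replicate was left out. It depended on the mismatch limit, with 0 at most 1 mismatch and 4 at most 3, and the plus-strand count of 2 became 0 at most 1 mismatch. Plus-strand matches stayed at 2 without either replicate. The share of sites found in both single-library lists was 100% and fell to 75% when a reciprocal overlap of 50% was required, where the Hoxc10 upstream peak is 112 bp wide in replicate 1 and 304 bp in replicate 2. No paired analysis was possible because there is 1 group and no contrast. With unknown depth, absence of a peak from the optimal set does not show absence of binding.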
